A study of Homo sapiens with 8 samples.

Results

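Luteolin is a plant flavonoid. The comparison described here asked which miRNAs differed between PC-3 cells given luteolin alone and cells given its solvent. PC-3 is an established line of hormone-insensitive human prostate cancer cells. RNA was taken 24 h after the addition of either DMSO (2 arrays) or 60 µM luteolin (2 arrays), and each RNA was hybridised to a 1-colour Agilent miRNA array. These 4 arrays were chosen by the treatment in their labels from the 8 arrays of the series. The other 4 arrays held cells given 60 µM gefitinib, a kinase inhibitor directed at EGFR, or both drugs at 60 µM each, and entered the fit so that all groups shared 1 estimate of the spread. The labels call the duplicate arrays biological replicates but name no separate cultures, so the p-values measure the spread between these arrays.

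A miRNA is cut from a hairpin precursor whose 5p and 3p arms pair as a short duplex. One arm, the guide, is usually kept in an Argonaute protein, while the other, the passenger, is usually degraded and is found at a lower level. The guide recognises messenger RNAs mainly through its seed, bases 2 to 8 counted from the 5′ end, and miRNAs with the same seed form a family with overlapping targets.

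The mature sequences of the 10 miRNAs that differed between luteolin and DMSO by the limma test (adjusted p under 0.05) are shown first, because 6 of them are passenger arms of well-known hairpins. Sequences run 5′ to 3′, are those of RefSeq (GRCh38.p14), and have the seed in capitals.
miR-503-5p: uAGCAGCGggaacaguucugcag
miR-181a-3p: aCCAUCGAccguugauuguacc
miR-222-5p: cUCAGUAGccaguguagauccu
let-7e-3p: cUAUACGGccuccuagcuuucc
miR-432-5p: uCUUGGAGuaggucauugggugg
miR-29b-1-5p: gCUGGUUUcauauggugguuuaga
let-7a-3p: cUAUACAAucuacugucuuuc
miR-3935: uGUAGAUAcgagcaccagccac
miR-19b-1-5p: aGUUUUGCagguuugcauccagc
miR-3617-5p: aAAGACAUaguugcaagauggg
The next 4 passenger arms are shown because, of the miRNAs detected on all 4 arrays whose groups did not overlap, they had the largest differences below 0 that missed the threshold.
miR-100-3p: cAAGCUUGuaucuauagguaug
miR-23a-5p: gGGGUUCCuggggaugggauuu
miR-15b-3p: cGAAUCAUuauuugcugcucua
miR-182-3p: uGGUUCUAgacuugccaacua
The last group shows relatives of these arms, namely a pair of miRNAs whose seed is 1 base away from that of miR-503-5p, the guide arm opposite let-7a-3p, and a family whose members were all higher with luteolin without passing the test.
miR-16-5p: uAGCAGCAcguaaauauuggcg
miR-424-5p: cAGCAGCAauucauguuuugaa
let-7a-5p: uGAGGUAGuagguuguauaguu
miR-320b: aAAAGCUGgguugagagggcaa
miR-320c: aAAAGCUGgguugagagggu
miR-320d: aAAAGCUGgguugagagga

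The called miRNAs come from separate loci. On GRCh38.p14, miR-503-5p lies at chrX:134546371-134546393 on the minus strand within MIR503HG, and miR-222-5p at chrX:45747073-45747094 on the minus strand within MIR222HG. The arm miR-181a-3p is at chr1:198859069-198859090 (minus strand, within MIR181A1HG) and miR-29b-1-5p at chr7:130877507-130877530 (minus strand, with no overlapping gene in the table). The let-7e-3p arm is at chr19:51692838-51692859 (plus strand, overlapping SPACA6 and SPACA6-AS1). Both loci that give let-7a-3p are on plus strands, at chr9:94176013-94176033 within MIRLET7A1HG and at chr22:46112800-46112820 within MIRLET7BHG and LOC124905135, and the probes cannot tell them apart. The arm miR-19b-1-5p is at chr13:91351207-91351229 (plus strand, within MIR17HG), and miR-432-5p at chr14:100884496-100884518 (plus strand, overlapping RTL1 in the imprinted 14q32 region). Finally, miR-3935 is at chr16:56245577-56245598 (plus strand, overlapping GNAO1) and miR-3617-5p at chr20:45705150-45705171 (minus strand, overlapping WFDC13). The strand of the overlapping genes was not considered.

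The scanner software detected 475 and 430 of 1887 human miRNAs on the DMSO arrays, and 479 and 407 on the luteolin arrays. Of these, 392 were detected on all 4 arrays. Among the epithelial markers, miR-205-5p was detected on all 4 arrays at scaled signals of 1.72 to 5.37 (the total signal of a miRNA divided by the array's 75th percentile over miRNAs detected on all 8 arrays, times a common factor), and the miR-200 family members miR-200a-3p, miR-200b-3p and miR-429 were also detected on all 4, whereas miR-200c-3p and miR-141-3p were detected on none. The 5 markers of fibroblasts and smooth muscle were undetected on these arrays, and 1 of the 7 markers of blood cells, miR-142-3p, was detected on luteolin replicate 2 alone at 1.67. Of the 8 markers of liver, muscle and neurons, miR-9-5p and miR-128 were detected, with a summed signal of 40.4 and 57.7 in the DMSO group and 38.5 and 57.1 in the luteolin group. All 8 arrays were on 1 slide, where the treatment set the column and the replicate number set the row. The column and the treatment therefore cannot be told apart, while the same-numbered arrays shared a row.

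A small set of mostly dim miRNAs was lower with luteolin. Of 480 miRNAs tested in 1 limma fit of all 8 arrays, 10 were called (2.08%), of which 9 were lower with luteolin (1.88%) and 1 was higher. A miRNA was tested if both arrays of some group detected it, and 14 of the 480 entered through the DMSO arrays alone and 2 through the luteolin arrays alone. Of the 10 called, 5 entered through the DMSO arrays alone, the group in which they were high, so the count and its direction rest in part on the filter. Without adjustment, 41 had p under 0.05. The median log2 fold change over the 480 miRNAs was -0.10, so that small falls were common. Without scaling between arrays this median was 0.03, and with quantile normalization it was 0.00 and 1 higher and 2 lower miRNAs were called. Of the 10 called miRNAs, 8 had a scaled signal under 5 on both DMSO arrays, and 3 (miR-503-5p, miR-29b-1-5p and let-7a-3p) were detected on all 4 arrays. Detection was therefore part of most of these differences, and its part in the result was not tested.

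**Figure D1:**
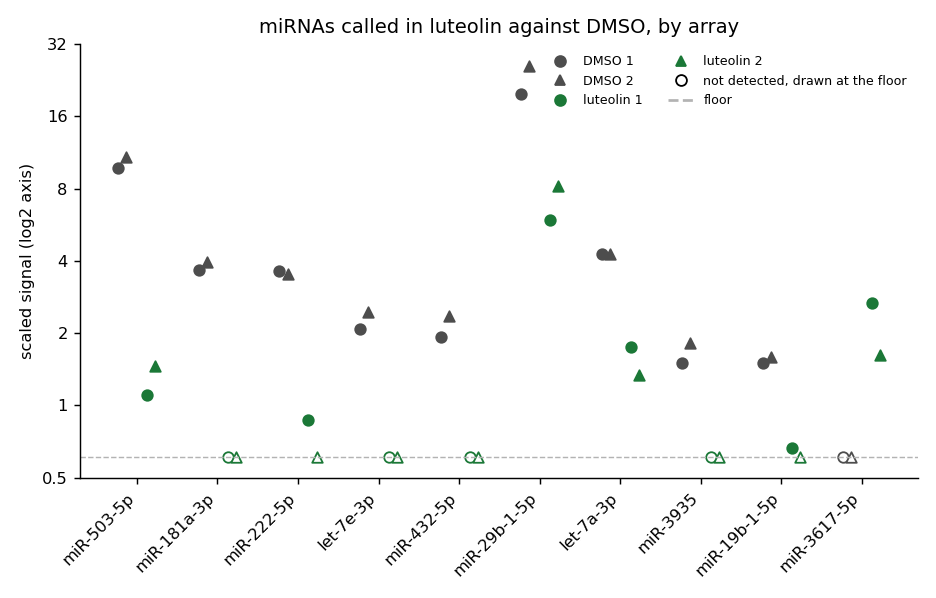
Scaled signal (log2 axis) of the 10 called miRNAs on the 2 DMSO arrays (grey) and the 2 luteolin arrays (green), ordered by log2 fold change. Circles are replicate 1 and triangles replicate 2, open symbols are undetected miRNAs drawn at the floor of 0.609, and in each miRNA the groups do not overlap.

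Among the miRNAs detected on all 4 arrays, the largest fall was that of miR-503-5p, a relative of the miR-15/16 family that is known to act on cell cycle messenger RNAs. Its scaled signal was 9.79 and 10.8 on the DMSO arrays and 1.11 and 1.45 on the luteolin arrays. Both luteolin arrays were far below both DMSO arrays, an 8.12-fold difference (log2 fold change -3.02, SE 0.17, limma adjusted p = 0.00179). The same-numbered arrays gave log2 ratios of -3.15 and -2.90, so replicates 1 and 2 showed almost the same fall. The call was lost with quantile normalization (-3.10, adjusted p = 0.170). It was kept at a smaller size when the signals of its spots were averaged in place of the total per miRNA (log2 fold change -2.36) and with the series table of the authors' processed spot values (-2.34).

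The 2 other called miRNAs detected on all 4 arrays were passenger arms. The miR-29b-1-5p arm, whose guide miR-29b-3p is known to act on collagen messenger RNAs, had signals of 19.9 and 25.8 with DMSO and of 5.93 and 8.18 with luteolin. This was a 3.25-fold fall (log2 fold change -1.70, SE 0.24, limma adjusted p = 0.0262), with same-numbered log2 ratios of -1.74 and -1.66. The call was lost with quantile normalization (adjusted p = 0.193), median scaling (0.0847) and no filter on detection (0.361). The let-7a-3p arm, which is opposite the tumour-suppressing let-7a guide, had signals of 4.26 and 4.28 with DMSO and of 1.75 and 1.34 with luteolin. It fell 2.79-fold (log2 fold change -1.48, SE 0.17, limma adjusted p = 0.0112), again with no overlap of the groups, and this call was lost with quantile normalization (adjusted p = 0.185), no scaling (0.0622) and no filter (0.136).

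Among the called miRNAs, 4 were detected on both DMSO arrays and on neither luteolin array. An undetected miRNA has no measured total, so the size of these differences is set by the floor of 0.609 that stands in for it, and their standard errors are too small because both luteolin arrays sit at that floor. The signals with DMSO were 3.65 and 3.97 for miR-181a-3p (limma adjusted p = 0.0103), 2.08 and 2.46 for let-7e-3p (0.00335), 1.92 and 2.36 for miR-432-5p, a miRNA of the imprinted 14q32 region (0.00383), and 1.51 and 1.82 for miR-3935 (0.00589). The signals of the spots themselves, which also exist for undetected miRNAs, gave smaller differences. They were given a floor set in the same way, 1.17 for the averaged spots, so these sizes can also depend on a floor. With the spots averaged, the log2 fold change was -1.35 for miR-181a-3p (limma adjusted p = 0.151), -0.60 for miR-432-5p (0.743) and -1.34 for miR-3935 (0.151), and these 3 calls were lost. They were lost also with the series table (adjusted p = 0.104, 0.435 and 0.104). It holds nearly the same spot values, so it is not a separate check. The call of let-7e-3p was kept in both, at smaller sizes of -1.55 (0.0128) and -1.59 (0.0159), and with a floor of 1 (-1.18), but was lost with quantile normalization (adjusted p = 0.197) and with a pseudocount of 16 in place of the floor (-0.18, 0.153).

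A pair of called passenger arms was detected on 1 of the luteolin arrays, replicate 1. The miR-222-5p arm had signals of 3.62 and 3.53 with DMSO and 0.871 on luteolin replicate 1 (log2 fold change -2.29, limma adjusted p = 0.00383). The miR-19b-1-5p arm, from the miR-17/92 cluster, had 1.504 and 1.593 with DMSO and 0.662 on luteolin replicate 1 (log2 fold change -1.29, limma adjusted p = 0.00589). Luteolin replicate 2 was set to the floor in both, so these sizes depend on it, and with a floor of 1 they were -1.84 and -0.63. With quantile normalization the call of miR-19b-1-5p was lost (-0.59, adjusted p = 0.607). In the other direction, miR-3617-5p was undetected on both DMSO arrays and had signals of 2.67 and 1.62 with luteolin. It was the single miRNA called higher (limma adjusted p = 0.0262), and this call was lost with the spots averaged (log2 fold change 0.61, adjusted p = 0.297) and with the series table (0.65, adjusted p = 0.259). The call of miR-222-5p was lost with the series table (-2.28, adjusted p = 0.0648) and held with the spots averaged (-2.14, adjusted p = 0.0328).

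Each call was lost under some settings, from 4 of 17 for miR-503-5p to 12 of 16 for miR-3617-5p. Quantile normalization lost 7 of the 10 and kept miR-181a-3p, miR-222-5p and miR-3617-5p, and the pseudocount of 16 kept miR-503-5p alone. The calls also rest on the spread shared by all 8 arrays. When the fit held only the 4 arrays of luteolin and DMSO, limma called 0 miRNAs, with 30 at an unadjusted p under 0.05, and the methods' test at a fold over 2 gave 0 after Benjamini-Hochberg adjustment and 13 before it. Leaving out DMSO replicate 2 gave 6 calls, and leaving out luteolin replicate 1 or 2 gave 15 and 18. The calls of let-7a-3p, miR-181a-3p, miR-29b-1-5p and miR-3617-5p were lost without DMSO replicate 1 (limma adjusted p from 0.0904 to 0.154) and without DMSO replicate 2 (0.114 to 0.219), and that of miR-29b-1-5p also without luteolin replicate 1 (0.0641).

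Passenger arms made up 6 of the 9 miRNAs called lower. None of the guide arms opposite them was called, which at 2.08% called over all 480 tested is no result about these guides. Of the 21 listed passenger arms detected on all 4 arrays, 2 were called lower (miR-29b-1-5p and let-7a-3p), 13 had both luteolin arrays below both DMSO arrays and 1 had both above. Over all 392 miRNAs detected on all 4 arrays, 3 were called, 69 were separated in this way with luteolin lower (17.6%) and 42 with luteolin higher (10.7%). The median log2 fold change of the 21 arms was -0.45, against -0.10 over the 392. The other 12 listed arms that were tested lacked detection on at least 1 of the 4 arrays. Of all 33, 8 passed the filter on detection through the DMSO arrays alone, 4 of the 6 called among them, and such arms were let in by the group in which they were high. This holds for 2 of the 4 let-7 passenger arms tested, and 3 of these 4 were on no luteolin array, so the medians of -1.11 for the let-7 arms and -0.47 for the 29 other arms are descriptions set in part by the filter and the floor. Without DMSO replicate 2, 3 of the 33 were called.

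Guide arms opposite the called passenger arms are given beside them, though the passenger arms were picked because they were called. The level of let-7a-5p was 2296 and 3660 with DMSO and 2393 and 4139 with luteolin (log2 fold change 0.12). Signals of miR-29b-3p were 1293 and 1769 with DMSO and 1095 and 1613 with luteolin (-0.19), and those of miR-222-3p, which is known to act on the cell cycle inhibitor p27, were 314 and 309 with DMSO and 332 and 308 with luteolin (0.04). In each of these guides the groups overlapped. The level of miR-181a-5p was 36.4 and 37.1 with DMSO and 43.3 and 42.1 with luteolin (0.22, limma adjusted p = 0.723), which is above both DMSO arrays. The remaining pair of guides, let-7e-5p and miR-19b-3p, had log2 fold changes of 0.10 and -0.28 with limma adjusted p of 0.995 and 0.785.

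The 4 other passenger arms printed above were lower by amounts that did not pass the test. The largest difference was that of miR-100-3p, opposite a guide that is known to act on the mTOR messenger RNA, with signals of 37.8 and 48.2 with DMSO and 15.2 and 10.0 with luteolin (log2 fold change -1.79, SE 0.31, limma adjusted p = 0.0566). Signals of miR-15b-3p were 3.03 and 3.62 with DMSO and 1.21 and 1.59 with luteolin (-1.26, SE 0.21, adjusted p = 0.0548). In both arms the groups did not overlap. Values of miR-182-3p were 7.37 and 8.33 with DMSO and 4.64 and 3.31 with luteolin (-0.9998, adjusted p = 0.0939), and those of miR-23a-5p were 4.11 and 3.27 with DMSO and 1.82 and 0.643 with luteolin (-1.76, adjusted p = 0.275). Without luteolin replicate 1 the log2 fold changes of miR-23a-5p, miR-182-3p and miR-15b-3p were -2.51, -1.245 and -1.058. Without luteolin replicate 2 they were -1.007, -0.755 and -1.457. With the series table miR-182-3p passed the threshold (-0.95, limma adjusted p = 0.0493). Outside the passenger arms, miR-339-5p had signals of 2.08 and 2.73 against 1.54 and 1.03 (-0.91, adjusted p = 0.666).

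**Figure D2:**
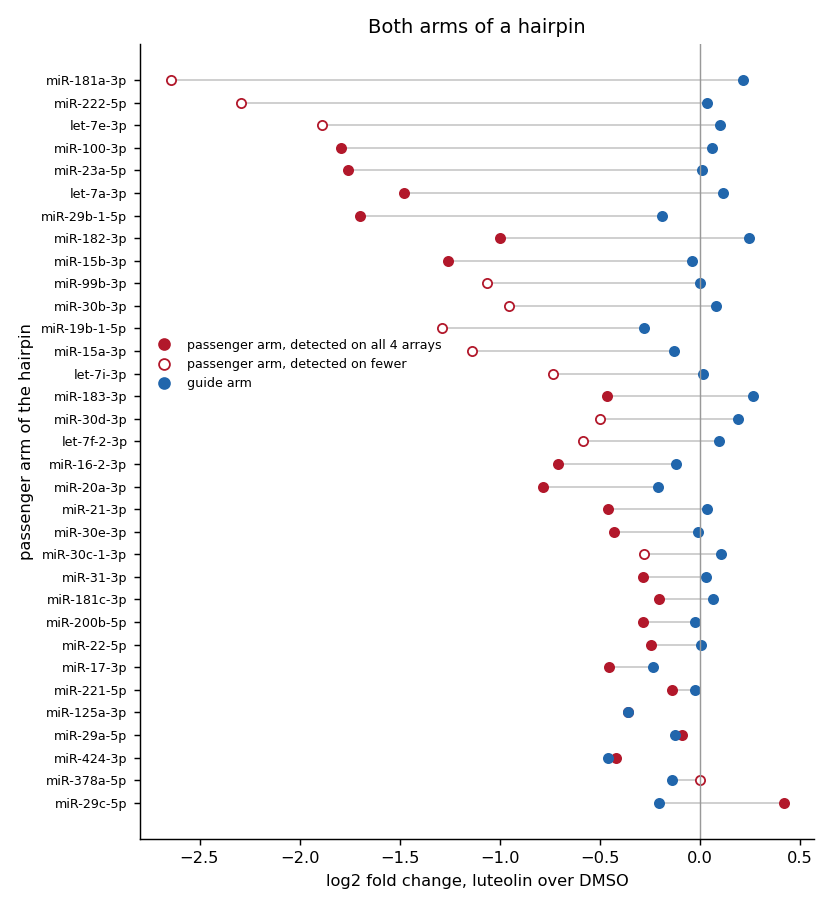
Log2 fold change of luteolin over DMSO for the passenger arm (red, open where it was detected on fewer than 4 of the 4 arrays) and the guide arm (blue) of 33 hairpins, ordered by the difference. The filled passenger arms lie below their guides in 17 of 21 hairpins, the guides stay between -0.46 and 0.27, and the size of the open ones depends on the floor of 0.609.

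In pairs with both arms detected on all 4 arrays, the passenger arm had the lower log2 fold change in 17 of 21 hairpins, with a median difference from its guide of -0.42 on the log2 scale. With the 12 pairs whose passenger arm was missed on some array, these values were 28 of 33 and -0.68, and 8 of the 33 passenger arms had entered through the DMSO arrays alone. Over the 33 pairs, guides ranged from -0.46 to 0.27 with a median of 0.01. The 5 exceptions, named after their values were seen, were the hairpins of miR-125a, miR-29a, miR-424, miR-378a and miR-29c. The miR-29c-5p arm was higher with luteolin on both arrays, at 3.80 and 4.34 with DMSO and 5.16 and 5.73 with luteolin (log2 fold change 0.42, limma adjusted p = 0.666), though it was 0.02 with the spots averaged, and miR-378a-5p was undetected on all 4 arrays. The brightest listed passenger arm detected on all 4 arrays, miR-31-3p, had signals of 133 and 181.6 with DMSO and 108 and 151.6 with luteolin (-0.28), and its groups overlapped. Its value was -0.037 without luteolin replicate 1 and -0.53 without luteolin replicate 2. Passenger arms were thus unequal among themselves.

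A ratio of both arms within an array is free of any factor that scales the whole array. For 39 hairpins with both arms detected on all 4 arrays, the shift of log2(5p/3p) with luteolin was called in 0 (0%), with 8 at an unadjusted p under 0.05. The largest shifts toward the 5p arm were in the hairpins of miR-100 (1.85, SE 0.39, limma adjusted p = 0.0581), let-7a (1.60, SE 0.42, adjusted p = 0.0915) and miR-182 (1.25, SE 0.34, adjusted p = 0.0915). In the miR-100 hairpin log2(5p/3p) was 6.30 and 6.39 with DMSO and 7.68 and 8.72 with luteolin, and in the let-7a hairpin it was 9.07 and 9.74 with DMSO and 10.4 and 11.6 with luteolin. The groups did not overlap in either. RefSeq gives let-7a-5p from 3 genes and let-7a-3p from 2 of them, so the let-7a ratio is not that of a single hairpin, as likewise for miR-29b-3p (2 genes) beside miR-29b-1-5p (1 gene). In miR-15b it was 6.67 and 7.02 with DMSO and 7.86 and 8.27 with luteolin (shift 1.22, adjusted p = 0.0581). The largest shifts toward the 3p arm were in miR-23a (-1.77, limma adjusted p = 0.226), miR-9 (-0.36) and miR-664a (-0.28). With the replicate number as a block, 3 hairpins were called in the fit of all 8 arrays (let-7a, miR-100 and miR-15b) and 6 in that of the 4 arrays. Without luteolin replicate 1, 5 were called, and with arm names that carry a locus number also matched, an alternative chosen after seeing the data, 3 were called (miR-100, miR-15b and miR-29b-1).

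Passenger arms were mostly dim, so those detected on all 4 arrays were set beside other miRNAs with a like mean log2 signal on the DMSO arrays. Between 2 and 8, the median log2 fold change was -0.61 for 10 passenger arms and -0.15 for 109 others. From 8 to 32 the medians were -0.45 for 7 passenger arms and -0.12 for 109 others, and from 32 to 128 they were -1.13 for 2 passenger arms (one of them miR-100-3p) and -0.04 for 78 others. Below 2 and above 128 there was 1 passenger arm each, at -0.28 in both, beside medians of -0.03 over 9 and 0.00 over 66 others. The DMSO arrays also enter the fold change, so the ranges are not independent of it. The ranges were set by the DMSO arrays after seeing the data. With ranges set by the mean of all 8 arrays, which the lower values of the treated arrays pull down, the medians of passenger arms and others were -1.26 and -0.22 from 0.5 to 2, -0.42 and -0.16 from 2 to 8, -0.46 and -0.10 from 8 to 32, and -0.37 and -0.05 from 32 to 128. These are descriptions over miRNAs, which are not replicates.

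The same-numbered arrays, which shared a row of the slide, gave 2 separate estimates of the difference. Of the 392 miRNAs detected on all 4 arrays, 207 were lower with luteolin in both and 96 were higher in both, while 89 went opposite ways. Without scaling between arrays these counts became 104 lower and 181 higher, so the balance of small changes follows the scaling. Over the 392, the log2 ratios of replicate 1 and of replicate 2 had a Pearson correlation of 0.72, a description over miRNAs that share their arrays. In 6 miRNAs both ratios were below -1, and 5 of these 6 were listed passenger arms (miR-29b-1-5p, miR-100-3p, let-7a-3p, miR-15b-3p and miR-23a-5p) beside miR-503-5p. This count was 4 to 6 under the other scalings and summaries of spots that were run. No miRNA exceeded 1 in both. The ratio of miR-100-3p was -1.32 for replicate 1 and -2.27 for replicate 2, and that of miR-23a-5p -1.17 and -2.35, so for these arms the replicates differed in size.

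**Figure D3:**
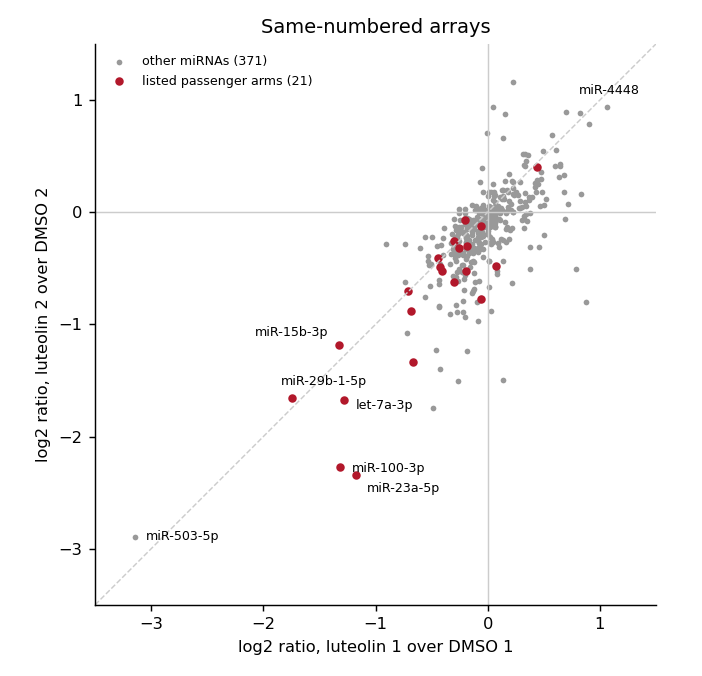
Log2 ratio of luteolin over DMSO for replicate 1 (horizontal axis) and replicate 2 (vertical axis) of the 392 miRNAs detected on all 4 arrays, with the 21 listed passenger arms in red and the line of equal ratios dashed. The lower left holds miR-503-5p and 5 passenger arms, each below -1 on both axes.

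No miRNA detected on all 4 arrays was called higher. In 6 miRNAs both same-numbered log2 ratios were above 0.5, with limma adjusted p from 0.131 to 0.566. The lowest p was that of miR-484, at 9.44 and 10.2 with DMSO and 14.03 and 16.40 with luteolin (log2 fold change 0.63, SE 0.14, limma adjusted p = 0.131). The largest of them was miR-4448, at 1.66 and 1.66 with DMSO and 3.45 and 3.17 with luteolin (0.997, SE 0.33, adjusted p = 0.401), and it passed with a floor of 1 (adjusted p = 0.0312) but was 0.24 with the spots averaged and 0.25 with the series table. Values of miR-3152-3p were 9.75 and 14.3 with DMSO and 17.3 and 26.4 with luteolin (0.86, and 0.55 to 1.16 on leaving out 1 array). The others were miR-3065-5p (0.85), miR-330-3p (0.79) and miR-4739 (0.58), each with both luteolin arrays above both DMSO arrays. Leaving out 1 array put miR-4739 at 0.38 to 0.78. The difference of miR-1287 was uneven, with same-numbered log2 ratios of 0.23 and 1.16 (0.69), and miR-497-5p had 0.64 and 0.43 (0.54). With the spots averaged, miR-3065-5p was at 0.16, miR-330-3p at 0.20, miR-1287 at 0.26 and miR-497-5p at 0.07, while miR-3152-3p and miR-484 stayed at 0.86 and 0.62.

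The 5 members of the miR-320 family were higher with luteolin on every array without passing the test. Hairpins of miR-320 and of miR-484 are known to be made without Drosha, the nuclear enzyme that cuts most others. The level of miR-320a was 67.3 and 75.8 with DMSO and 94.7 and 110.4 with luteolin (log2 fold change 0.52, limma adjusted p = 0.316). That of miR-320d was 84.4 and 91.9 with DMSO and 106 and 132 with luteolin (0.42), and that of miR-320c 61.3 and 66.1 with DMSO and 77.8 and 90.9 with luteolin (0.40). In all 5 members the groups did not overlap, against 10.7% of all miRNAs detected on all 4 arrays. Their median was 0.42, it stayed above 0 under every alternative run, and 0 of 5 were called by limma, with 2 at an unadjusted p under 0.05. The mature miR-320b, miR-320c and miR-320d printed above share the seed AAAGCUG and most of their length, so their probes may read each other's RNA and the members are not separate evidence.

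The seed of miR-503-5p has 6 of 7 bases in common with the seed of miR-16-5p and of miR-424-5p, and the difference is G8A, with the base of miR-503-5p first and positions counted from 1 at the 5′ end. Of the 7 members of the miR-15/16 list tested, 1 was called (miR-503-5p), 6 were below 0, and the median was -0.12. Over all 480 tested, 2.08% were called, 308 were below 0 and the median was -0.10, so these counts are no result about the family. The level of miR-16-5p was 613 and 887 with DMSO and 538 and 855 with luteolin (log2 fold change -0.12), and this sign turned without scaling (0.03) and with quantile normalization (0.10). The opposite end of the list was miR-497-5p, at 3.12 and 4.81 with DMSO and 4.87 and 6.48 with luteolin (0.54, limma adjusted p = 0.781, and 0.07 with the spots averaged). Its value was 0.22 without DMSO replicate 1 and 0.85 without DMSO replicate 2.

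Its neighbours in the genome were lower with luteolin by much less. The cluster of miR-424, miR-503, miR-542 and miR-450 lies on the X chromosome, and 6 of its members, miR-503-5p included, were tested and detected on all 4 arrays. All 6 had a log2 fold change below 0 and below the median of all miRNAs tested, with a median of -0.44, and 4 of 6 had both luteolin arrays below both DMSO arrays, against 17.6% of all. These counts and the median include miR-503-5p itself. Signals of miR-424-5p were 94.7 and 129 with DMSO and 62.5 and 103 with luteolin (-0.46, limma adjusted p = 0.781). The groups overlapped, and the value was -0.095 without luteolin replicate 1, -0.82 without luteolin replicate 2, -0.68 without DMSO replicate 1 and -0.24 without DMSO replicate 2. Signals of miR-542-5p were 2.10 and 1.86 with DMSO and 1.59 and 1.58 with luteolin (-0.32). Only miR-503-5p was called.

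Over 15 lists of guide arms, 68 miRNAs were tested and detected on all 4 arrays, 34 had a log2 fold change above 0 and 34 below, and their median was 0.00. This balance follows the centring and the arrays used, since the median was 0.15 without scaling, -0.22 and 0.18 without DMSO replicates 1 and 2, and 0.18 and -0.23 without luteolin replicates 1 and 2. The list medians ran from -0.30 (miR-18, miR-19 and miR-25/92) to 0.25 (miR-183, miR-96 and miR-182). The single member called was miR-503-5p, which at 2.08% called over all 480 tested is no result about guide arms. The 8 let-7 guide arms ranged from -0.03 to 0.28 with a median of 0.10, the 3 miR-29 guides from -0.20 to -0.12, and miR-21-5p and miR-31-5p were at 0.04 and 0.03. In the miR-18, miR-19 and miR-25/92 list, 7 of 7 were below 0, as were 308 of all 480 tested, and in 4 of 7 both luteolin arrays lay below both DMSO arrays, against 17.6% of all detected on all 4. The 11 tested members of the cluster of miR-188, miR-532, miR-500 and miR-660 were all below 0, between -0.34 and -0.14, and 0 were called by limma, with 0 at an unadjusted p under 0.05. Leaving out the scaling moved the median of all miRNAs by 0.13.

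**Figure D4:**
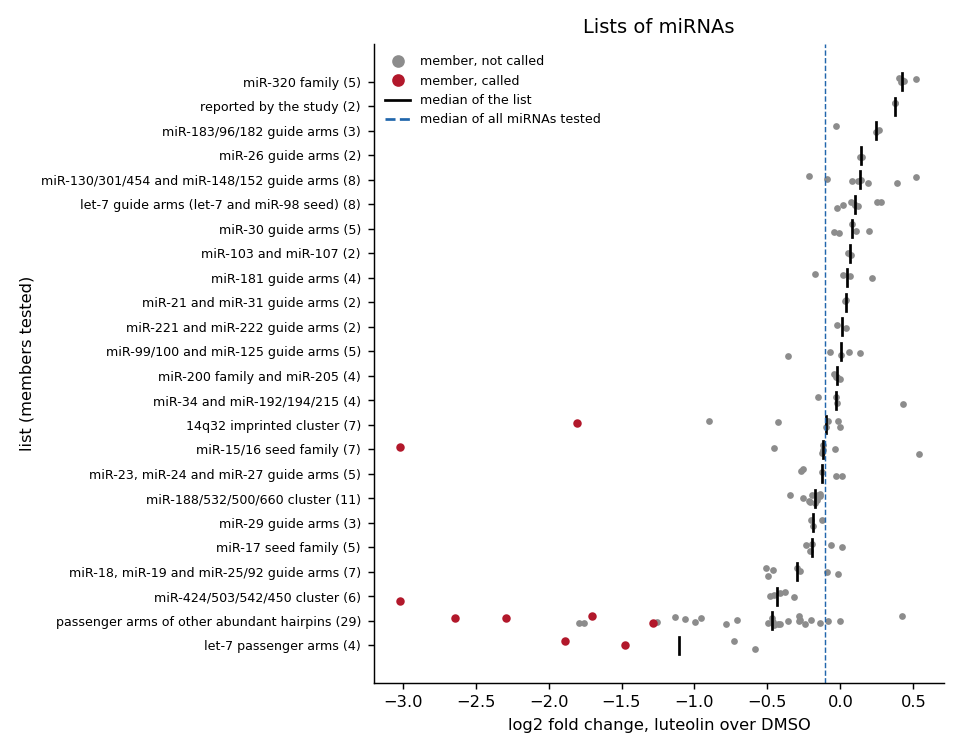
Log2 fold change of luteolin over DMSO of each tested member (points, red where called) of the miRNA lists, with the median of each list (black bar) and of all 480 miRNAs tested (dashed line at -0.10). The miR-320 family has its 5 members between 0.40 and 0.52, and 3 of the 4 let-7 passenger arms were on no luteolin array, so their place depends on the floor.

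RefSeq sequences were matched by name for 395 of the 480 miRNAs tested, and 37 seeds were shared by 2 or more of them. The 97 members of these seed families held 0 of the called miRNAs, which at 2.08% called over all is no result about them, and the family medians ran from -0.48 (miR-18a-5p and miR-18b-5p) to 0.44 (miR-4516 and miR-5703). All 10 called miRNAs had a matched sequence. The seeds of let-7a-3p and let-7e-3p agree in 5 of 7 bases, with the differences A7G and A8G when the base of let-7a-3p is written first.

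The miRNAs singled out by the study, miR-630 and miR-5703, showed a difference smaller than that between replicates. The level of miR-630 was 32.03 and 18.6 with DMSO and 40.2 and 24.8 with luteolin (log2 fold change 0.37, limma adjusted p = 0.901). That of miR-5703 was 33.5 and 19.4 with DMSO and 42.2 and 25.9 with luteolin (0.38, limma adjusted p = 0.910). Replicate 1 was higher than replicate 2 in both groups, and luteolin was higher in both same-numbered comparisons of each. Leaving out DMSO replicate 2 turned both signs (-0.021 for miR-630 and -0.018 for miR-5703), and leaving out luteolin replicate 1 left 0.024 and 0.021, while without DMSO replicate 1 both were at 0.77 and without luteolin replicate 2 they were 0.72 and 0.73.

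Replicates of both groups differed in the same miRNAs. For the 392 miRNAs seen on all 4 arrays, the log2 difference of replicate 2 from replicate 1 had a Pearson correlation of 0.90 between DMSO and luteolin, against -0.02 between DMSO and gefitinib and 0.38 between DMSO and the combination. The difference exceeded 1 in size for 25 miRNAs in the DMSO group and for 48 in the luteolin group, whereas the same-numbered ratios of luteolin over DMSO exceeded 1 for 7 and 15. The median size of the replicate difference was 0.318 with DMSO and 0.392 with luteolin, and that of the same-numbered ratios was 0.1804 and 0.216. With DMSO, miR-192-5p was 1.49 higher on replicate 2 and miR-205-5p was 1.64 lower, and with luteolin these differences were 1.59 and -1.502. Their changes with luteolin were -0.15 and -0.05.

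The shared difference followed base composition. Over the 327 of these miRNAs with a matched sequence, the percentage of G and C had a Spearman correlation of -0.48 with the replicate difference in the DMSO group and -0.54 in the luteolin group, but 0.09 with the log2 fold change of luteolin over DMSO. The 44 miRNAs with up to 40% G and C were higher on replicate 2 by a median of 0.41 with DMSO and 0.40 with luteolin. The 51 with over 70% were lower on replicate 2 by -0.17 with DMSO and -0.40 with luteolin, and their median ratio of luteolin over DMSO was 0.23 for replicate 1 and -0.01 for replicate 2. By range of G and C, the median log2 fold change of luteolin over DMSO ran from -0.21 (over 60 to 70%) to 0.11 (over 70%). What set the replicates apart was not tested. With the replicate number as a block, the fit of all 8 arrays called 9 miRNAs, the 9 lower ones, and miR-3617-5p had an adjusted p of 0.0568.

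**Figure D5:**
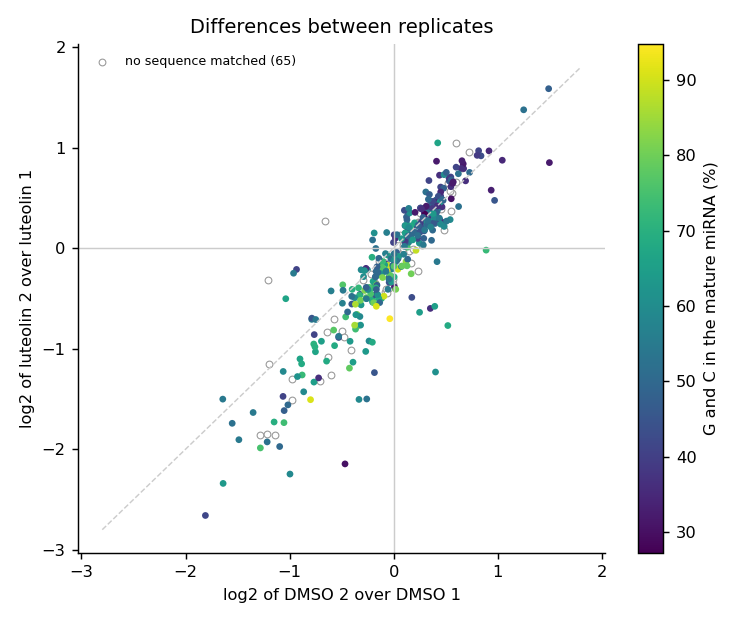
Log2 difference of replicate 2 from replicate 1 in DMSO (horizontal axis) and luteolin (vertical axis) for the 392 miRNAs detected on all 4 arrays, coloured by the percentage of G and C in the mature miRNA where a sequence was matched. The points follow the dashed line of equal differences, with low percentages at the upper right.

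Luteolin and gefitinib at the same dose and time were compared directly, without the DMSO arrays in the contrast. Of 480 miRNAs, 24 differed by limma (5%), 2 of them higher and 22 lower with luteolin, and 1 of the 10 miRNAs called against DMSO was among them. That one was miR-432-5p, detected at 2.18 and 2.11 with gefitinib and on no luteolin array (limma adjusted p = 0.00489), with a size that the floor sets, and its call against DMSO was lost with the spots averaged. The other 9 had log2 differences from -0.50 to 0.26 with adjusted p from 0.416 to 1. Of these, miR-3935 and let-7e-3p were below detection on the luteolin and the gefitinib arrays alike, so their difference of 0 is floor against floor. For miR-503-5p the signals were 1.52 and 1.51 with gefitinib beside 1.11 and 1.45 with luteolin. The passenger arm miR-182-3p was 12.9 and 12.6 with gefitinib beside 4.64 and 3.31 with luteolin (log2 difference -1.70, limma adjusted p = 0.00970). The level of miR-484 was higher with luteolin than with gefitinib (1.04, adjusted p = 0.0139), and that of miR-630 was lower (-1.88, adjusted p = 0.0495).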

How the data were processed

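Total RNA was labelled with Cy3 and hybridised to Agilent human miRNA arrays, and the authors extracted each array on its own with Agilent Feature Extraction (10.7.3.1 per the file headers). The intensity in these deposited files is linear, had its background subtracted by the software and was not normalized between arrays. The total signal per miRNA was used.

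Totals were scaled to the 75th percentile of each array over 365 miRNAs detected on all 8 arrays, given a floor of 0.609, which is the median of the 8 lowest detected signals, and log2-transformed. A miRNA was tested if some group had it detected on both of its arrays, and these 480 were fitted with limma 3.58.1 in R 4.3.3 (4 groups, 4 residual degrees of freedom, two-sided). Benjamini-Hochberg adjustment ran over the 480, and under 0.05 was called. Arm ratios were fitted likewise over 39 hairpins. The fit was tested on simulated data.

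Named miRNAs were the called ones and their other arms, the 8 largest rises and falls without overlap, the 5 highest and lowest by the smaller same-numbered ratio, and extremes of the lists described by member, while other lists are given by their range. The members, lists and rules were chosen with earlier results of these data known. An exact permutation test of 2 against 2 arrays could not reach the threshold and was not used. The number of arrays limits the precision.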

Additional observations from a re-analysis of the deposited data

How the results depend on the processing

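With 2 arrays in a group and 4 residual degrees of freedom, the calls depended on the settings. Against 10 miRNAs called, quantile normalization gave 3, miRNAs detected on all 8 arrays 2, no filter on detection 5, a pseudocount of 16 in place of the floor 1, and the authors' processed spot values 6, with 5 of the 10 lost, while averaged spots lost 4. The fit of only the luteolin and DMSO arrays, the same with a replicate block and the methods' test gave 0 each, with 30, 79 and 26 at an unadjusted p under 0.05. A replicate block over all 8 arrays gave 9. Leaving out 1 array gave 6 (without DMSO replicate 2) to 18 (without luteolin replicate 2, of which 8 were higher). Passenger arms called, 6 of 33 as reported, were 2 with quantile normalization, 1 with detection on all 8 arrays, 2 with no filter, 0 with the pseudocount, with the 4 arrays alone, with their replicate block and with the methods' test, and 3 to 7 without 1 array. Leaving out 1 array moved 0 of the 10 called and 16 of the 29 other named log2 fold changes by over 1.5 times. Over 162 alternative fits of the 10 called miRNAs, 75 lost the call and 0 changed sign. The fit of the 4 arrays alone, the replicate blocks, the methods' test and the filters on detection leave the log2 fold change as it is. Where both arrays of a group sat at the floor, leaving out 1 of them could not move the value. These counts of 0 therefore do not measure stability.

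The arm ratio, called in 0 hairpins, was called in 2 with quantile normalization, with detection on all 8 arrays, with no filter (miR-222 and miR-432) and with a floor of 1, in 6 with a replicate block on the 4 arrays, in 3 with it on all 8, in 3 with locus-numbered arms, and in 0 to 5 without 1 array. The median of the let-7 passenger arms was -0.94 without scaling, -0.92 with quantile normalization, -0.61 with a floor of 1, -0.13 with the pseudocount, and -1.20 to -1.01 without 1 array. With the pseudocount, that of the other passenger arms was -0.11 (-0.63 to -0.54 without 1 array) and that of the cluster of miR-503 was -0.11. The miR-320 family was at 0.58 without scaling, and at 0.29 to 0.58 without 1 array. Counts lower in both same-numbered ratios were 104 without scaling and 120 with quantile normalization, and 181 were higher in both without scaling. The cause was not tested.

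Signs changed only in miRNAs that were not called: miR-222-3p (-0.085 with quantile normalization, -0.017 with mean processed signals) and miR-16-5p (0.033 without scaling, 0.10 with quantile normalization), and on leaving out 1 array let-7a-5p (-0.28 to 0.51), let-7e-5p (-0.23 to 0.44), miR-222-3p (-0.014 to 0.091), miR-29b-3p (-0.47 to 0.093), miR-16-5p (-0.45 to 0.21), miR-5703 (-0.018 to 0.77) and miR-630 (-0.021 to 0.77). The 75th percentile over all miRNAs could not be used, because it was the placeholder for undetected miRNAs on 5 of 8 arrays. Without the filter, many variances were 0. The numbers of replicates come with no stated pairing, and same-numbered gefitinib and DMSO arrays did not deviate together, so the block was not the reported fit. Most called miRNAs were near the lowest detected signal, which limits what can be said of their size.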

Other observations

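Detection itself was compared over the 1887 miRNAs. On both DMSO arrays and no luteolin array there were 7 miRNAs, and on both luteolin arrays and no DMSO array there was 1, miR-3617-5p. A further 10 were detected on 1 DMSO array alone and 22 on 1 luteolin array alone, while 1384 were detected on none of the 4.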
